A study of Mus musculus with 6 samples.

Results

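The nuclear genes of the mitochondrial respiratory chain and of ATP synthase were compared between fibroblasts carrying the control hairpin shSCR and fibroblasts carrying the hairpin shARF. Members were taken by gene symbol: those starting with Nduf, Uqcr, Cox4i, Cox5, Cox6, Cox7, Cox8 or Atp5, with Sdha, Sdhb, Sdhc, Sdhd and Cyc1, leaving out pseudogene symbols. The rule uses no measured difference between the groups. It found 90 genes on 115 probesets, of 19288 genes and 26851 probesets in all. Of the 90, 34 encode complex I subunits, 7 complex I assembly factors, 4 complex II, 9 complex III, 17 complex IV and 17 ATP synthase. A further 2, Cox7a2l and Ndufa4l2, encode related proteins outside these complexes. Each gene is given by its probeset with the highest mean. The genes Cox7c, Ndufb4 and Ndufb4b lie on probesets that carry several symbols and were left out.

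The study hybridised total RNA of cultured mouse embryonic fibroblasts to 6 Affymetrix gene-level arrays, in 2 groups of 3 labelled biological replicates. Both groups are named dp53R in the series title and Ras in the sample titles, and they differ by construct, shSCR or shARF. ARF is a tumour suppressor encoded at the Cdkn2a locus, known for stabilising p53 through its binding to MDM2. The p53 genotype, the form of Ras, the mouse strain and age, and whether the replicates came from separate cultures are not given in the sources used here, so p-values cover only how these samples vary, possibly for technical reasons. The labels name 1 hairpin against ARF, and with it the signal of the locus was lower but not absent. Cdkn2a fell from 530 ± 12.2 to 285 ± 30.7 in signal (SD, n = 3 each), 1.87-fold (limma, adjusted p = 0.00459). The probeset is named for the locus, and the ARF transcript was not measured apart.

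The respiratory chain sits in the inner mitochondrial membrane. Complex I takes electrons from NADH and complex II from succinate, and both hand them to ubiquinone. Complex III passes them on to cytochrome c, and complex IV passes them to oxygen. The proton gradient that complexes I, III and IV build drives ATP synthase. A small core of subunits is encoded by mitochondrial DNA, and the remaining subunits, with the assembly factors, are encoded in the nucleus and imported. Transcription of many of these nuclear genes is known to depend on the factors NRF1, GABP (an ETS factor), YY1 and the estrogen-related receptors, with PGC-1 family coactivators.

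Motif letters of these factors were counted in the members' promoters, which the rule did not use. RefSeq promoter windows (assembly GRCm38.p6, 250 bases before to 50 after the start of the gene) matched 73 of the 90 members by gene identifier. The core of the NRF1 motif, with 1 free position and searched on both strands, was present for 18 of the 73 members (24.7%), against 8.07% of 15095 genes of the array with a window and 5.19% of all 27025 genes with one. The letters AAGATGGC, part of the YY1 motif, on either strand, were present for 10 of 73 (13.7%), against 3.84% and 3.19%. The ETS letters CCGGAAGT were present for 5 of 73 (6.85%), against 6.19% and 4.31%, and the estrogen-related receptor letters AAGGTCA for 7 of 73 (9.59%), against 4.41% and 5.38%. A match describes the letters of a window and is not a measured binding site. NRF1 matches were found in 6 of 15 ATP synthase genes and 6 of 31 complex I subunit genes. YY1 matches were found in 7 of 31 complex I genes, in 3 of 15 ATP synthase genes and in 0 of the windows of the other members. Of the 10 YY1 matches, 8 began after the start of the gene.

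The upstream parts of 2 promoters are printed because they belong to the gene that passed the test and to a gene with the palindromic NRF1 core. Ndufb7 lies on the plus strand at chr8:83566508-83566757 and Atp5g2 on the minus strand at chr15:102671048-102671297, both GRCm38.p6 and both the 250 bases before the start, 5′ to 3′. Capitals mark the NRF1 match, whose first base is 42 bases before the start of Atp5g2. The printed stretch of Ndufb7 has no match to the NRF1 or YY1 letters.
Ndufb7: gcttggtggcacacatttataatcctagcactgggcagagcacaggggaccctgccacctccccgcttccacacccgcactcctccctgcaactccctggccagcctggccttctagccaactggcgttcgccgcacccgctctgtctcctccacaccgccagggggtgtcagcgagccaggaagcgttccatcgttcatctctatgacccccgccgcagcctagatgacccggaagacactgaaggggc
Atp5g2: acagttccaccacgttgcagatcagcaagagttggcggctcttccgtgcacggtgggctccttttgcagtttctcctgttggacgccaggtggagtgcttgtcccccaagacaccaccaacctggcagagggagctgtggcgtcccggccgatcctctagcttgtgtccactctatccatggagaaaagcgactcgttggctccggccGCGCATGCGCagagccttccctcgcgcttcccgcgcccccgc

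Expression of the members differed little between the groups. A probeset was tested if it exceeded the detection level, the 25th percentile of its array, on at least 3 of the 6 arrays. Of the 90 members 89 were tested, and Cox7b2, a testis-type isoform of a complex IV subunit, lay below the level on all 6 arrays at 6.58 ± 0.359 (SD, n = 3) in shSCR and 6.79 ± 0.642 in shARF. Among the 89, 1 gene fell in shARF, Ndufb7, and 0 rose (limma, adjusted p under 0.05 over all tested probesets). This is 1.12% of the members, where 4.01% of all 15145 genes tested were called, 1.62% higher and 2.38% lower. By the unadjusted p under 0.05, 10 members had lower and 1 a higher signal (12.4%, where 22.2% of all genes passed it), beside 13.4% of all genes lower and 8.76% higher. SAM, the test named in the design text, called 2 members, Ndufb7 lower and the assembly factor gene Ndufaf6 higher, where it called 7.12% of all genes, 4.61% lower and 2.52% higher. In bulk samples fewer cells of a type and less RNA per cell cannot be told apart.

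The size of the differences was bounded closely. The log2 differences (shARF minus shSCR, on the log2 signal scale throughout) had a median of 4.25e-04 and a range from -0.42 for Cox6b2 to 0.34 for Ndufaf6, with 45 positive and 44 negative. The sign of the median was not stable, with values from -0.01 to 0.01 over the settings tried. Over all genes the median was -0.01. The median absolute difference was 0.06 for members and 0.10 for all genes, and the median standard error 0.07 and 0.08. A difference over 0.25 in either direction was measured for 6 members (6.74%), against 14.7% of all genes. For 87 of the 89 members the 95% limma interval lay within a 1.5-fold change in either direction (97.8%, against 91.7% of all genes). The exceptions were Cox6b2 and Ndufaf1.

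**Figure D1:**
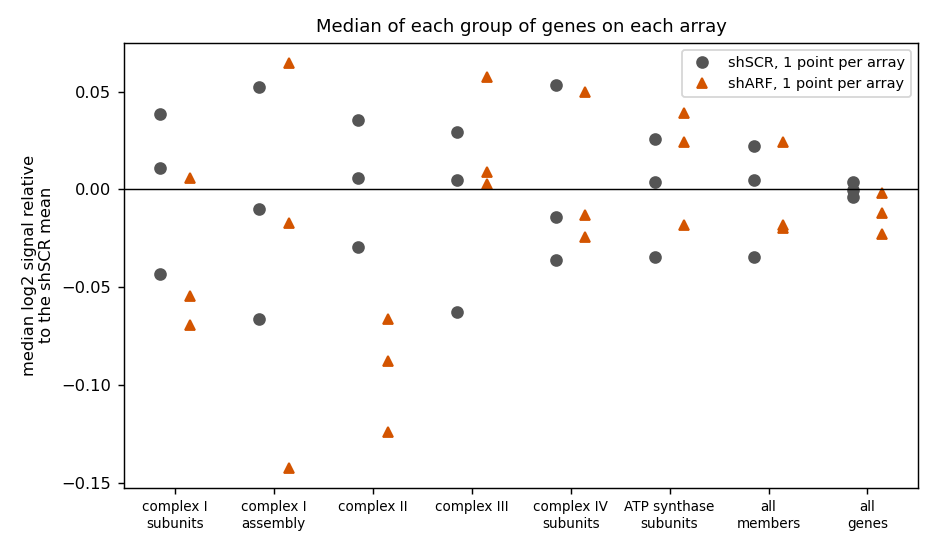
Median log2 signal of each group of genes on each array, relative to each gene's shSCR mean; circles are the 3 shSCR arrays and triangles the 3 shARF arrays. Only complex II, with 4 genes, has all shARF arrays below all shSCR arrays among the 6 groups by role, and for all members the shARF arrays lie between -0.02 and 0.02.

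The medians by array overlapped between the groups for the complexes as units, except for complex II. Over all members the array medians, relative to the shSCR mean of each gene, were 0.02, 0.00 and -0.03 in shSCR (replicates 1, 2 and 3 in turn) against 0.02, -0.02 and -0.02 in shARF, so the groups overlapped. Complex I subunits gave 0.04, 0.01 and -0.04 in shSCR and 0.01, -0.07 and -0.05 in shARF. Complex II gave 0.01, 0.04 and -0.03 against -0.07, -0.12 and -0.09, the only role among those plotted in which the arrays of the groups did not overlap. ATP synthase subunits gave 0.03, 0.00 and -0.03 against 0.02, -0.02 and 0.04. Members often shared the order of the arrays: shSCR replicate 1 was the highest shSCR array for 44 of the 89 members, and shARF replicate 1 the highest shARF array for 50. The lowest were most often shSCR replicate 3 (48) and shARF replicate 2 (52).

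Complex I held the called gene. Of its 34 subunit genes 1 fell and 0 rose, 19 differences were negative and 15 positive, and the median was -0.01. At an unadjusted p under 0.05, 7 were lower and 0 higher, where 13.4% of all genes were lower and 8.76% higher. The arrays of the groups did not overlap for 8 genes lower in shARF and 1 higher, that is 23.5% and 2.94% of the subunit genes, where 16.6% and 12.0% of all genes had such arrays.

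Ndufb7 encodes an accessory subunit of the membrane arm of complex I. Its signal was 1557, 1583 and 1468 on the shSCR arrays and 1202, 1151 and 1233 on the shARF arrays. Every shARF array lay below every shSCR array. The mean went from 1536 ± 60.3 (SD, n = 3) to 1195 ± 41.4, a fall of 1.29-fold, or -0.36 ± 0.062 (SE) on the log2 scale (limma, adjusted p = 0.0272). The interval ran from -0.51 to -0.22. When any 1 of the 6 arrays was dropped, Ndufb7 no longer passed, with adjusted p between 0.069 and 0.101 in limma and differences between -0.39 and -0.33 over all settings.

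Other accessory subunits gave smaller negative differences that did not pass. Ndufa2, a subunit of the NADH-binding module, gave 1717, 1737 and 1600 in shSCR and 1447, 1364 and 1441 in shARF, a difference of -0.25 ± 0.063 (SE; limma, adjusted p = 0.0852). Its groups did not overlap. Ndufa9, which lies where the peripheral arm meets the membrane arm, gave 601, 632 and 705 against 538, 574 and 539, also without overlap (-0.23 ± 0.077; limma, adjusted p = 0.155). Ndufa7 gave 631, 629.9 and 544 against 549, 447 and 502, and here the highest shARF array exceeded the lowest shSCR array. Ndufa13, known also as the cell death regulator GRIM-19, gave 127, 117 and 119 against 113, 105 and 101, without overlap (-0.19 ± 0.068). Ndufa5, a subunit of the ubiquinone-binding module, differed by -0.12, with its highest shARF array at 613 and its lowest shSCR array at 615.

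Core subunits of the peripheral arm differed in both directions, and none passed. Ndufs7 and Ndufs8 hold the iron-sulfur clusters next to the ubiquinone site, and Ndufv1 binds NADH and the flavin that first accepts its electrons. Ndufs7 gave 704, 706 and 682 in shSCR and 664, 581 and 616 in shARF (-0.17 ± 0.068; limma, adjusted p = 0.216). Ndufs8 gave 755, 721 and 736 against 661, 689 and 659 (-0.14 ± 0.057; limma, adjusted p = 0.226), and Ndufv1 gave 740.4, 772 and 790.2 against 692, 724 and 697 (-0.12 ± 0.059; limma, adjusted p = 0.287). The groups did not overlap for these 3 genes. Ndufs1, the largest iron-sulfur subunit, gave 403, 424 and 486 against 404, 466 and 429.7, with a difference of -0.01 and an interval from -0.23 to 0.20. Ndufv2, another iron-sulfur subunit, had the opposite sign, at 615, 580.5 and 547 against 659, 589 and 634, with overlap (0.11 ± 0.073; limma, adjusted p = 0.431). Ndufs3 differed by 0.03, also with overlap, and its other probeset, of similar signal, differed by -0.05.

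The highest differences of complex I subunits were those of Ndufb2 (0.19 ± 0.088; limma, adjusted p = 0.266) and Ndufs5 (0.19 ± 0.105). Ndufs4, a subunit of the peripheral arm known from mouse models of Leigh syndrome, gave 518, 503 and 488 in shSCR and 593, 531 and 538 in shARF. It was the only subunit gene of complex I whose arrays were higher in shARF without overlap (0.14 ± 0.067; limma, adjusted p = 0.30). The other 19 subunit genes of complex I lay between -0.22 for Ndufb3 and 0.15 for Ndufa12.

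**Figure D2:**
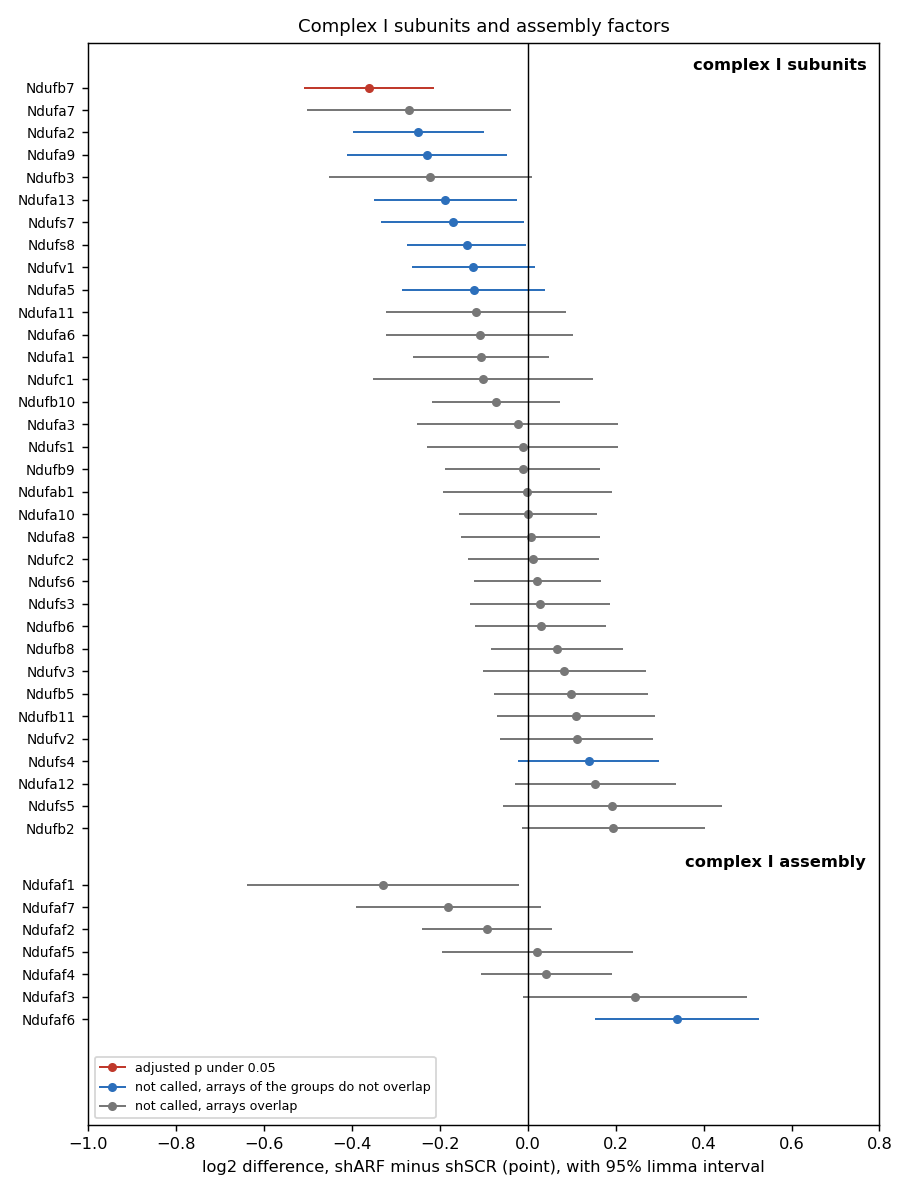
Log2 difference of each complex I subunit and assembly factor gene, shARF minus shSCR (point), with its 95% limma interval (line). Ndufb7, in red, is the gene that passed the test, and blue marks genes that did not pass but whose arrays do not overlap between groups.

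The assembly factors of complex I had a larger median absolute difference than its subunits, 0.18 against 0.11. Their median standard error was also larger, 0.09 against 0.07. Of 7 genes 0 passed limma's test. At an unadjusted p under 0.05, 1 was higher and 1 lower, where 8.76% of all genes were higher and 13.4% lower. SAM called 1 higher, where it called 2.52% of all genes higher. Ndufaf6 encodes a factor needed for the early assembly of the complex. Its signal was 94.98, 89.1 and 99.0 in shSCR and 116, 130 and 112 in shARF. All shARF arrays lay above all shSCR arrays, and the difference was 0.34 ± 0.078 (SE), or 1.27-fold (limma, adjusted p = 0.0655, lowest 0.0323 and highest 0.173 among its alternatives). Ndufaf1, a chaperone of the membrane arm, gave 61.6, 75.2 and 83.4 against 51.2, 58.9 and 64.6, with overlap, and differed by -0.33 ± 0.131 (limma, adjusted p = 0.215). The other 5 lay between -0.18 for Ndufaf7 and 0.24 for Ndufaf3.

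Complex II, succinate dehydrogenase, gave negative differences in all 4 of its genes, none of which passed the test. Its median was -0.09. Sdhc, a membrane anchor, gave 1260, 1163 and 1157 in shSCR and 1114, 955 and 983 in shARF, a difference of -0.23 ± 0.079 (SE; limma, adjusted p = 0.159). Sdhb, the iron-sulfur subunit, gave 1033, 1028 and 951 against 945, 891 and 929.6 (-0.12 ± 0.063; limma, adjusted p = 0.321). Sdhd, the other anchor, gave 612, 646 and 618 against 605, 593 and 597, a difference of -0.06. The groups did not overlap for these 3 genes (75.0%, where 16.6% of all genes were lower without overlap). Sdha, the flavoprotein that oxidises succinate, gave 723, 802 and 826 against 775, 787 and 774 (-0.01, interval from -0.17 to 0.15), and its shARF arrays lay inside the shSCR range. The sign was negative for Sdha in 14 of 16 settings and for the other 3 genes in 16 of 16.

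Complex III had the smallest differences of the roles by its median absolute value, 0.03. Of 9 genes 0 passed and 0 had an unadjusted p under 0.05. Uqcrc2, a core protein of the complex, gave 928, 965 and 1040 in shSCR and 1059, 1098 and 1093 in shARF, without overlap (0.15 ± 0.065; limma, adjusted p = 0.25). Uqcr10 differed by 0.13 and Uqcrh, the hinge protein, by -0.06, both with overlap. The electron carriers of the complex were close between the groups. Uqcrfs1, the Rieske iron-sulfur protein, gave 679, 668 and 659.7 against 677, 685 and 692 (0.03, interval from -0.09 to 0.16). Cyc1, which encodes cytochrome c1, gave 831, 785 and 827 against 837, 819 and 816 (0.02, interval from -0.12 to 0.15).

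In complex IV, 0 of 16 tested genes passed, and 1 was lower at an unadjusted p under 0.05 (6.25%, where 13.4% of all genes were lower). The widely expressed subunits differed by -0.07 for Cox6b1 to 0.12 for Cox5a. Cox4i1, the common form of subunit IV, gave 2165, 2221 and 2375 in shSCR and 2143, 2250 and 2177 in shARF (-0.04, interval from -0.19 to 0.11). Cox5a gave 2257, 2162 and 1934 against 2380, 2158 and 2375, with overlap (0.12 ± 0.08). Cox5b gave 2259, 2252 and 2165 against 2379.7, 2327 and 2353, without overlap, at a difference of 0.08. Ndufa4, named after complex I and now counted with complex IV, differed by 0.04.

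Complex IV has tissue isoforms, which were read against a detection level of 14.1 to 14.9 in signal. Cox7a1, the heart and muscle isoform of subunit VIIa, gave 57.5, 55.3 and 48.4 in shSCR and 45.7, 41.7 and 44.6 in shARF, without overlap. The difference was -0.29 ± 0.082 (SE) and did not pass (limma, adjusted p = 0.115). Cox7a2, the widely expressed isoform, gave 1554, 1571 and 1619 against 1587, 1468 and 1567 (-0.04). Cox6b2, the testis isoform of subunit VIb, gave 81.3, 68.0 and 70.1 against 72.4, 38.6 and 58.2, with overlap, and its interval ran from -0.92 to 0.08. Cox4i2, the isoform of subunit IV found in lung and induced by low oxygen, gave 47.3, 44.8 and 41.6 against 45.1, 43.0 and 40.3 (-0.06, interval from -0.23 to 0.12). The muscle isoform Cox6a2 differed by 0.04 and the widely expressed Cox6a1 by 0.05. Cox8a, Cox8b and Cox8c, isoforms of subunit VIII, differed by -0.02, 0.04 and 0.03. Cox8b exceeded the level on 2 of 3 shSCR arrays and 3 of 3 shARF arrays. Of 10 striated muscle markers 8 were tested and 0 passed, and the summed signal of the 10 was 260 to 301 on shSCR arrays against 278 to 312 on shARF arrays.

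ATP synthase had 17 tested genes, of which 0 passed and 0 had an unadjusted p under 0.05 on the probeset used for each gene. The differences lay between -0.06 for Atp5j2 and 0.14 for Atp5md, with 10 positive and 7 negative. The catalytic subunits were near each other in the groups. Atp5b, the beta subunit that forms ATP, gave 3217, 3298 and 3583 in shSCR and 3302, 3577 and 3323 in shARF (0.02, interval from -0.15 to 0.18). Atp5a1, the alpha subunit, gave 2651, 2596 and 2878 against 2799.6, 2983 and 2909, with overlap (0.10 ± 0.066; limma, adjusted p = 0.439). The shARF arrays were higher without overlap for 4 genes, Atp5md, Atp5g2, Atp5g3 and Atp5l (23.5%, where 12.0% of all genes were higher without overlap). Atp5md, a small subunit at the contact between dimers, gave 1422, 1324 and 1323 against 1562, 1490.2 and 1431 (0.14 ± 0.065; limma, adjusted p = 0.277). Atp5l, subunit g, differed by 0.07.

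The c ring that turns with the proton flow is made from the same mature protein encoded by 3 genes. Atp5g2 gave 2846, 2880 and 2769 in shSCR and 2941, 2928 and 3141 in shARF, a difference of 0.08 ± 0.059 (limma, adjusted p = 0.463). Atp5g3 gave 3600.1, 3622 and 3425 against 3670, 3776 and 3749 (0.07). Atp5g1 had the opposite sign, at -0.05, with 3240, 3223 and 2911 against 3127, 2866 and 3027. The groups overlapped for Atp5g1 and not for Atp5g2 or Atp5g3, and none of the 3 passed. Whether these genes differ from each other in response was not tested.

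**Figure D3:**
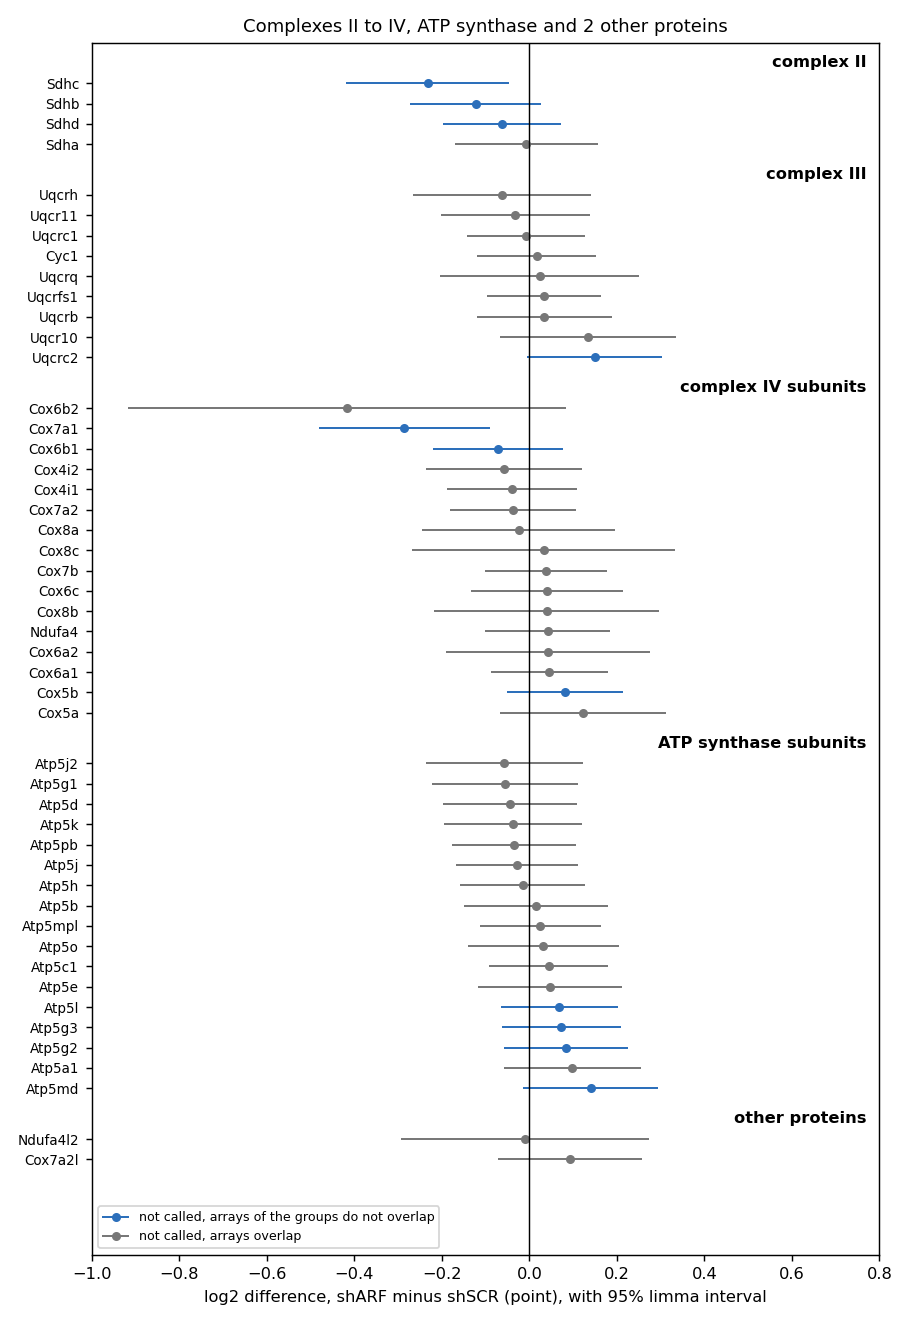
Log2 difference of each tested gene of complexes II to IV, ATP synthase and the proteins Cox7a2l and Ndufa4l2, shARF minus shSCR (point), with its 95% limma interval (line). No gene passed the test; blue marks genes whose arrays do not overlap between groups, and Cox6b2 has the widest interval.

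The remaining members were Cox7a2l, which joins complexes III and IV in supercomplexes, and Ndufa4l2, a hypoxia-induced relative of Ndufa4. Cox7a2l gave 1058, 1121 and 1203 in shSCR and 1164, 1241 and 1199 in shARF (0.09 ± 0.069). Ndufa4l2 gave 24.5, 27.2 and 22.6 against 21.0, 28.2 and 25.001, with a difference of -0.01. Neither passed, and the groups overlapped for both.

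In all, the arrays of the groups did not overlap for 21 of the 89 members (23.6%), against 28.6% of all genes tested. Of these 13 were lower in shARF (14.6%, background 16.6%) and 8 higher (8.99%, background 12.0%). The 13 were 8 complex I subunits, 3 genes of complex II and the complex IV genes Cox7a1 and Cox6b1. The 8 were 4 genes of ATP synthase with Ndufs4, Ndufaf6, Uqcrc2 and Cox5b.

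**Figure D4:**
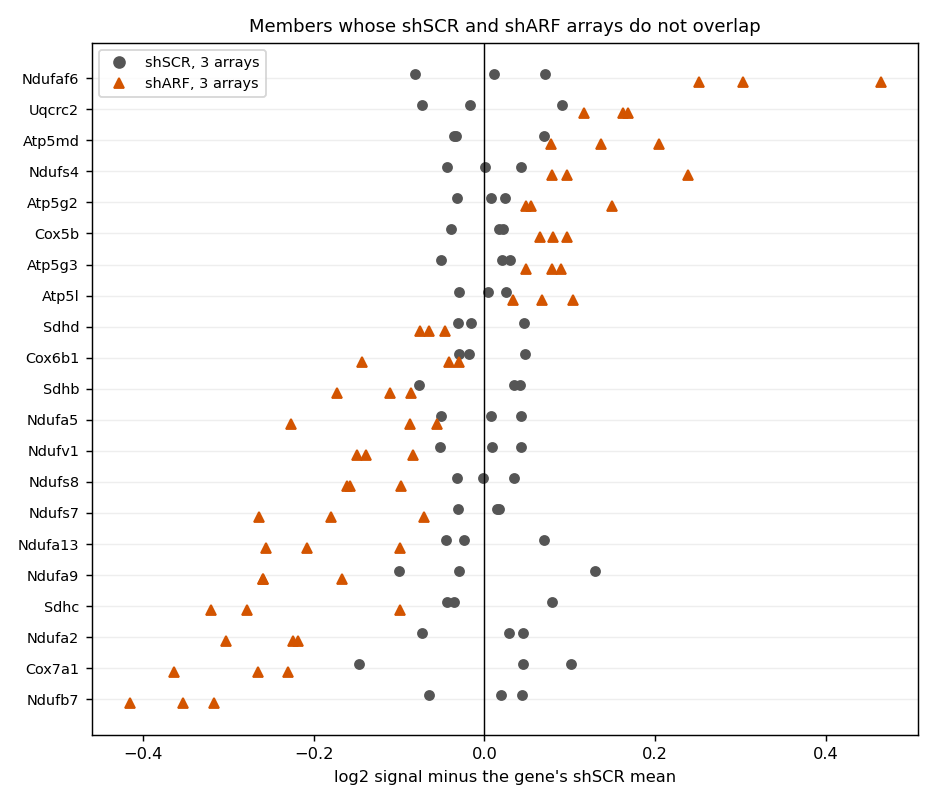
Log2 signal of the 21 members whose groups do not overlap, relative to each gene's shSCR mean, on the 3 shSCR arrays (circles) and the 3 shARF arrays (triangles). Ndufb7 lies furthest below its shSCR arrays and Ndufaf6 furthest above them.

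The probesets of a gene were also compared with each other. For 17 members more than 1 probeset was tested, and 0 of these members had a called probeset. The differences had both signs for 4 of the 17. The 6 probesets of Atp5l ranged from 0.07 to 0.11 and the 3 of Atp5g2 from 0.08 to 0.11. The 2 of Atp5pb were furthest apart, at -0.19 and -0.04, followed by those of Ndufb11 at -0.03 and 0.11. The dimmer Atp5pb probeset, at -0.19, was not the one used. It was lower in shARF without overlap and did not pass (limma, unadjusted p = 0.0121, adjusted p = 0.127). Many genes of the respiratory chain have processed pseudogenes, and their probes may read both, so single values are uncertain in that respect.

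Other genes of the pathway, on lists of assembly, import, translation and metabolism, had few calls. The 9 lists held 221 tested genes, of which 4 were called, all lower in shARF; the background is 2.38% of all genes lower. These 4 calls became 0 with no filter, 2 after quantile normalization was repeated, and 1 without shSCR replicate 1 or 0 without any of the other 5 arrays. Of 40 assembly factors and carriers outside the symbol rule, 1 fell and 0 rose, with 12 lower and 3 higher by the unadjusted p, beside 13.4% and 8.76% of all genes, and a median of -0.07. The gene that fell was Sdhaf3, an assembly factor of complex II, from 65.3 ± 1.63 (SD, n = 3) to 51.9 ± 1.23 (-0.33 ± 0.057; limma, adjusted p = 0.0272). Its partner in maturing the iron-sulfur subunit, Sdhaf1, gave 228 ± 8.85 and 189 ± 1.01 and did not pass (limma, adjusted p = 0.0539). Sdhaf1 was named after its value was seen. Cycs, which encodes cytochrome c, gave 1278, 1330 and 1415 against 1521, 1588 and 1536, without overlap, and did not pass (0.21 ± 0.063; limma, adjusted p = 0.129).

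Of 77 genes of the mitochondrial ribosome, which translates the subunits encoded by mitochondrial DNA, 2 fell and 0 rose (2.60%, where 2.38% of all genes fell and 1.62% rose). Mrpl10 fell from 771 ± 52.2 (SD, n = 3) to 558 ± 57.4 (-0.47 ± 0.093; limma, adjusted p = 0.0433) and Mrpl45 from 235 ± 15.05 to 183 ± 7.23 (-0.36 ± 0.07; limma, adjusted p = 0.0424). Of the 77 differences 52 were negative, with a median of -0.03. Over all genes 8060 of 15145 differences were negative. By the unadjusted p, 12 of the 77 were lower and 3 higher, beside 13.4% and 8.76% of all genes. Among 9 mitochondrial antioxidant enzymes 1 fell and 0 rose (11.1%, where 2.38% of all genes fell and 1.62% rose). The gene that fell was Nnt, the proton-driven transhydrogenase that makes NADPH, from 366 ± 7.57 to 289 ± 12.4 (-0.34 ± 0.061; limma, adjusted p = 0.0317). By the unadjusted p, 3 of the 9 were lower and 0 higher, beside 13.4% and 8.76% of all genes. In sign, 6 differences were negative and 3 positive. Prdx3 and Sod2, named after their values were seen, were lower without overlap (-0.22 and -0.23) and did not pass. The list of biogenesis regulators and mitochondrial DNA upkeep had 20 tested genes, 0 called, 3 lower and 0 higher by the unadjusted p (all genes 13.4% and 8.76%), 15 negative differences and a median of -0.07. Its smallest p-values belonged to Twnk, the helicase of mitochondrial DNA (-0.41 ± 0.109; limma, adjusted p = 0.096), and Tfb2m, a factor of mitochondrial transcription (-0.21 ± 0.07). The regulators Nrf1, Gabpa, Esrra, Ppargc1b, Pprc1 and Tfam differed by -0.06, -0.11, -0.02, 0.10, -0.11 and -0.18, and none passed. Ppargc1a was not analysed here.

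The remaining lists had 0 calls in limma. Beside 13.4% of all genes lower and 8.76% higher by the unadjusted p, the lists gave the following counts. Of 17 genes of the TCA cycle with pyruvate dehydrogenase, 2 had a negative and 1 a positive difference at an unadjusted p under 0.05, with Idh3b at -0.20 and Suclg2 at 0.19. Of 27 genes of import and chaperones, 5 were lower and 2 higher, with Timm10 at -0.30 and Timm17a at -0.17. Of 13 metabolite carriers, 1 was lower and 2 higher, with the carnitine carrier Slc25a20 at -0.35 and the pore gene Vdac3 at 0.14. Of 16 glycolysis enzymes, 2 were lower and 2 higher, with Ldhb at -0.24 and Pfkp at 0.18. SAM called 8 genes over all lists, against 4 in limma. The 2 measured genes of mitochondrial DNA were ND3, of complex I, and COX2, of complex IV. ND3 gave 2148, 2178 and 2015 in shSCR and 2518, 2379.6 and 2234 in shARF (0.17 ± 0.069; limma, adjusted p = 0.229), and COX2 gave 4530, 4548 and 4634 against 5200, 4799 and 4879.6 (0.12 ± 0.059; limma, adjusted p = 0.318). All 3 shARF arrays were higher than all shSCR arrays for both genes, where 12.0% of all genes were higher without overlap. Neither passed, and no other gene of this list was measured. Nuclear copies of mitochondrial DNA exist, and the probes may read them too.

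**Figure D5:**
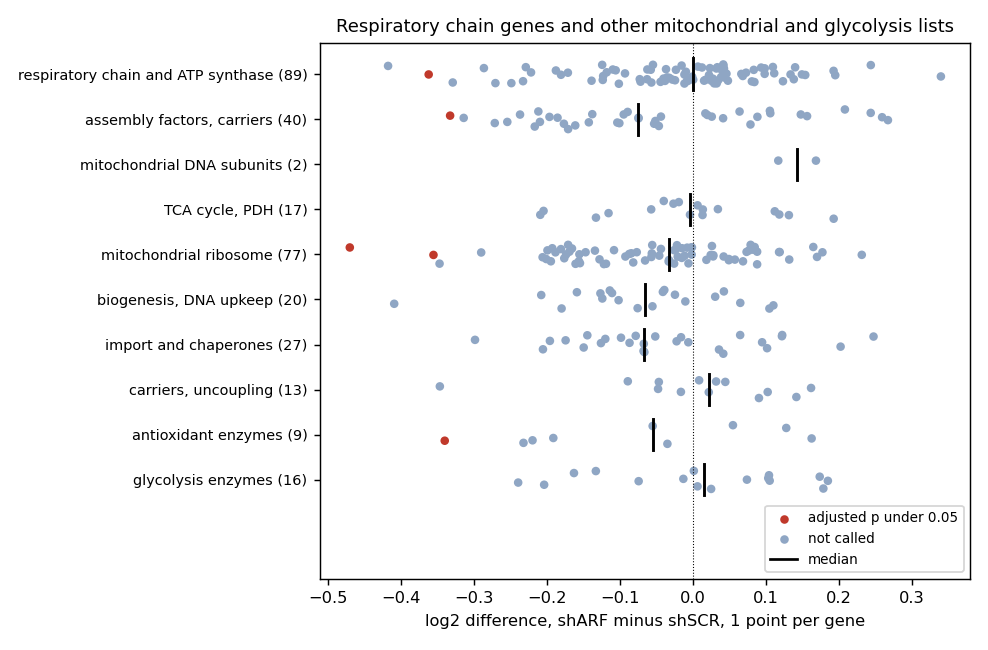
Log2 difference of every tested gene (points) of the respiratory chain and ATP synthase and of the other mitochondrial and glycolysis lists, with the number of genes in brackets and the median of each list as a bar. The members centre on 0, and the 5 genes that passed the test, in red, all lie below 0.

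Markers of the labelled cell type were present on all arrays. All 8 fibroblast markers exceeded the detection level on the 6 arrays, with shSCR sums of 17166 to 18532 and shARF sums of 17815.5 to 18502 in signal, and 0 were called. The sums hide differences in both directions. Thy1 and Pdgfra were lower without overlap (-0.38 and -0.22). Col1a1, Col3a1 and S100a4 were higher without overlap (0.18, 0.30 and 0.16), and Col1a2, Pdgfrb and Vim overlapped. Of all genes tested, 28.6% did not overlap. Of 7 macrophage markers 5, among them Adgre1, Csf1r and Ptprc, exceeded it on 0 arrays, and the sums were 133 to 143 and 133 to 156. Cd53 rose, while Cd68 was lower without overlap (-0.36) and not called. The sums were 215.5 to 248 and 324 to 457 for 5 epithelial markers, of which Krt18 rose, and 666 to 716 and 843 to 927 for 5 neural markers, of which Nefl rose. Among the other epithelial markers, Krt8 was higher without overlap (0.74) and not called. Krt14 (0.19) and Epcam (0.14) overlapped and were not called. Epcam exceeded the detection level on 1 of 3 shSCR and 2 of 3 shARF arrays, and Cdh1 on 0 arrays. Among the other neural markers, Nefm and Map2 were higher without overlap (0.61 and 0.31) and Tubb3 lower without overlap (-0.52). Snap25 differed by -0.0012, and none of these was called. For 5 endothelial markers the sums were 89.7 to 92.8 and 87.7 to 92.8, and for 6 adipocyte markers 293 to 316 and 282 to 372, with 0 called in either list. Their part in the values of the respiratory chain was not tested.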

How the data were processed

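The authors deposited linear intensities, made with RMA (background correction, quantile normalization and probe summary) in Affymetrix Expression Console on core probesets, per the submitters' processing notes and design text; its version was not stated there. RMA forces the arrays to nearly one distribution, so a general shift is hidden, and it shrinks differences of dim genes. Values were turned to log2, and probesets were named from the platform annotation. Groups were compared over all 20310 tested probesets with limma 3.58.1 in R 4.3.3 (lmFit, eBayes, two-sided, Benjamini-Hochberg, threshold 0.05). SAM was computed over all 20 arrangements of the labels at a false discovery rate of 0.05. The fit was tested on simulated data. Arrays have no depth, and 3 per group limit the precision. Same-numbered replicates deviated together only weakly (correlations 0.08, 0.05 and 6.18e-04). The highest correlations of shSCR replicates 1, 2 and 3 with another shARF number were 0.06, 0.01 and 0.09. The numbers were not used as pairs.

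Members and lists were chosen with earlier results of these data known. Genes named were every called member, in each role the 2 smallest p-values and the highest and lowest difference, core subunits, isoforms, and of the other lists the called genes or the 2 smallest p-values; further members were named after their values were seen. Alternatives were another normalization, centring, other filters, a pseudocount of 16, a replicate block, an intensity trend, SAM, the mean of probesets, and leaving out each array.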

Additional observations from a re-analysis of the deposited data

How the results depend on the processing

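Ndufb7 was the called member again after quantile normalization, centring on array medians, no filter and the mean of probesets, and its difference was negative in 16 of 16 settings. The 1 call became 3 with a stricter filter at the 50th percentile and with a pseudocount of 16 (Ndufa2 and Ndufaf6 added), 4 with an intensity trend and robust prior (Sdhc added) and 2 with SAM; without any 1 array it was 0. Over all genes the 607 calls (4.01%) became 372 of 19288 with no filter (1.93%) and 996 of 10358 with the stricter filter (9.62%). They became 978 with the pseudocount (6.46%), 1281 with the trend (8.46%) and 1079 with SAM (7.12%), and 150 to 330 without 1 array (0.99% to 2.18%). The members tested were 86 with the stricter filter and 89 with the pseudocount, the trend and SAM. The 1 member higher at an unadjusted p under 0.05 became 5 after quantile normalization, 5 with the stricter filter, 5 with the pseudocount and 11 with the trend, and 1 to 3 without 1 array; the 10 lower became 4 to 8. Members without overlap went from 21 to between 24 and 35 without 1 array, as fewer arrays overlap less. The 4 calls on the other lists became 2 after quantile normalization, 0 with no filter, 8 with the stricter filter, 7 with the pseudocount, 16 with the trend and 8 with SAM, and 0 to 1 without 1 array. The cause of these changes was not tested otherwise. Cdkn2a kept its call in all 16 settings.

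With the replicate number as a block, 0 members were called (Ndufb7 at an adjusted p of 0.0849 in limma), 336 genes over all, 0 on the other lists, and 3 members were higher at an unadjusted p under 0.05. The labels give only a shared number. Among shSCR replicates, 1 and 2 correlated best with their own number in shARF, and 3 correlated better with another number. Signal over background limits the tissue isoforms: the stricter filter removed Cox8b, Cox8c and Ndufa4l2.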
